A study of Mus musculus with 24 samples.

Results

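The comparison described here is that of 2 human CAR mice given CITCO with 4 mice of the same genotype given TCPOBOP or corn oil. The 6 liver arrays were chosen by their sample titles, out of 24 arrays in the whole series. All mice were females of a mixed C57BL/6x129Sv background, and each gave the RNA for 1 array. In human CAR mice the mouse albumin promoter drove a transgene for human CAR, and, like the knockout mice, both of their mouse CAR alleles were ablated, so the 2 CITCO mice and the 4 control mice all lacked mouse CAR. CITCO was injected at 30 mg/kg per day for 3 days. TCPOBOP was given as a single injection of 3 mg/kg on the first day and followed by corn oil, and the corn oil mice received the vehicle. Livers were taken 6 h after the last injection. Further arrays used below came from knockout mice given CITCO, TCPOBOP or corn oil (6 arrays), from wild-type mice, which carry only mouse CAR, given CITCO, TCPOBOP or corn oil (6 arrays), and from mice of all 3 genotypes given phenobarbital at 100 mg/kg per day (2 arrays each). The albumin promoter places the transgene in hepatocytes, outside the regulation of the native gene, and the number of founder lines is not given in the sources used here.

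CAR (constitutive androstane receptor, gene Nr1i3) is a nuclear receptor of hepatocytes. In the resting cell it is held in the cytoplasm, and after exposure to drugs such as phenobarbital it enters the nucleus, pairs with the retinoid X receptor and switches on genes for oxidation, conjugation and export of foreign compounds. The mouse and human receptors differ in their ligands: TCPOBOP binds mouse CAR and CITCO human CAR. Mice in which the human receptor replaces the mouse one are therefore used to examine human CAR ligands, and in them TCPOBOP serves as a second control beside corn oil.

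Values are RMA levels on a log2 scale, on which 1 unit is 2-fold, and differences below are log2 differences unless a fold is named. Hepatocyte markers were at high levels on all 6 arrays, with a mean over 13 tested markers of 11.71 and 11.74 in CITCO mice and 11.78 to 11.93 in control mice. Mouse Nr1i3 was at 5.07 and 5.50 in CITCO mice and at 5.03 to 5.38 in the 4 control mice, while wild-type mice given corn oil had 7.58 and 7.37; where its probe set lies relative to the ablated part of the gene is not known here. The human transcript has no probe set of its own in these data, so the level of the transgene was not analysed here. Of 24 arrays, 2 phenobarbital arrays (human CAR replicate 1 and knockout replicate 2) stood apart from the rest, with median correlations with the other arrays of 0.935 and 0.957. Neither belongs to the 6 arrays compared, but both enter the shared estimate of spread, and the count of genes is given with and without them. The spread within the CITCO pair was the third highest of 12 groups (SD of the difference between the 2 mice 0.332), against 0.243 in the TCPOBOP pair and 0.291 in the corn oil pair.

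CITCO was accompanied by higher levels of 12 genes in human CAR livers, and 5 of them encode cytochromes P450. Cyp2b10, the P450 gene commonly read as the sign of CAR activity in mouse liver, rose 12.2-fold. Cyp2c55, Cyp2c50, Cyp2c54 and Cyp2c29 rose 6.56-fold, 4.69-fold, 4.59-fold and 2.48-fold. The other 7 were Cnmd, which encodes the cartilage glycoprotein chondromodulin (6.22-fold), Txnip (2.19-fold), Rarb (2.03-fold), Ces2a (2.00-fold), Abcc3 (1.93-fold), 4931406C07Rik (1.74-fold) and Mmut (1.41-fold). The test was limma's moderated test of the CITCO mean against the mean of both control groups, with a Benjamini-Hochberg adjusted p under 0.05 over 9164 genes; the 12 genes are 0.131% of them, and 0 genes (0%) were called lower. Without adjustment, at p under 0.05, 436 genes (4.76%) were higher and 525 (5.73%) lower. With 2 mice per group the calls lean on single arrays: without CITCO replicate 1 only Cyp2b10 was called, and without CITCO replicate 2 only 5 of the 12 were, among 11 genes called (9 higher and 2 lower). Without any 1 of the 4 control arrays 8 or 9 genes were called, of which 7 to 9 were among the 12. Leaving out the 2 phenobarbital arrays that stood apart gave 22 genes, among them all 12.

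For each of the 12 genes both CITCO arrays lay above all 4 control arrays, a separation that 696 of 9164 genes (7.59%) showed in this direction and 706 (7.7%) in the other. Each also differed from the TCPOBOP mice alone and from the corn oil mice alone at an unadjusted p under 0.05. Since the 12 were called on the mean of these contrasts, this adds no separate evidence. In either direction, 1091 of 9164 genes passed that threshold against TCPOBOP alone and 687 against corn oil alone. Just outside the threshold lay Il15ra (0.52, adjusted p = 0.0514 in limma), Smarca2 (0.74, adjusted p = 0.0546) and Ubxn4 (0.67, adjusted p = 0.0715). The negative change with the smallest p was that of Dennd4b (-0.49, adjusted p = 0.0715).

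**Figure D1:**
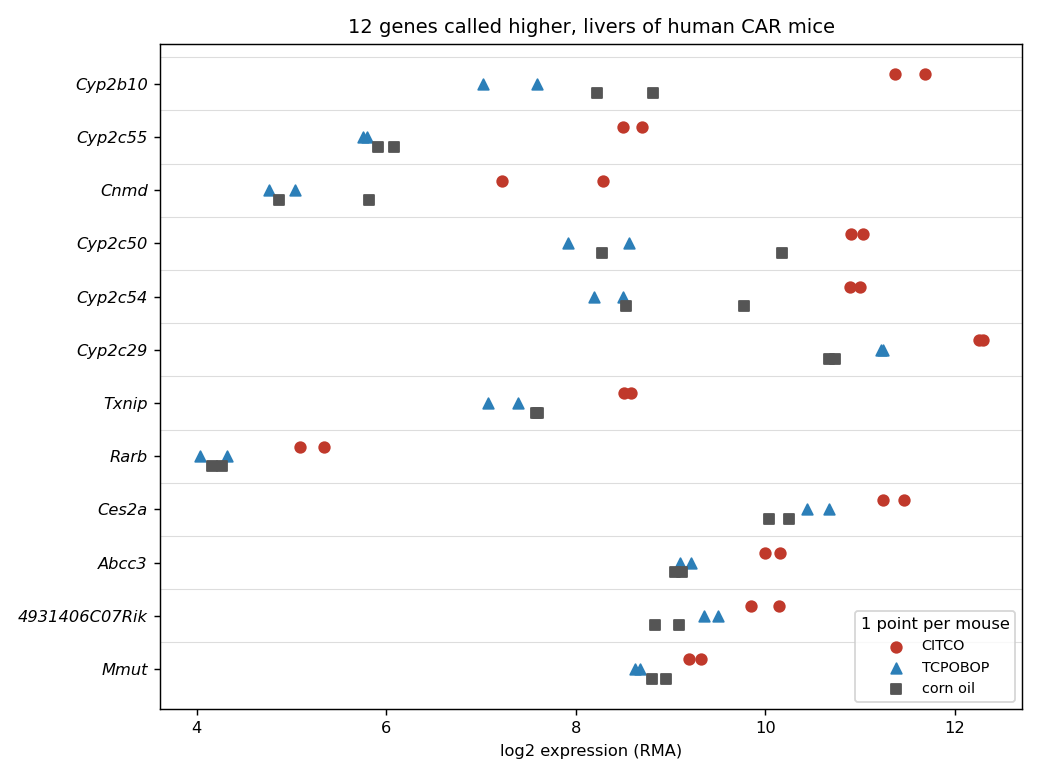
Each row is 1 of the 12 called genes and each point 1 mouse, with the RMA level on the log2 x axis: red circles are CITCO, blue triangles TCPOBOP and grey squares corn oil, all in human CAR mice. In every row both circles lie to the right of all 4 control points, by 2.55 units for Cyp2b10 and by 0.26 for Mmut.

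Cyp2b10 reached 11.37 and 11.68 in CITCO mice, against 7.02 and 7.59 in TCPOBOP mice and 8.22 and 8.82 in corn oil mice. The 3 pairs did not overlap, and the corn oil pair lay above the TCPOBOP pair. The change against both control groups was 3.61 (SE 0.33, adjusted p = 6.3e-05 in limma), and its 95% interval ran from 7.51-fold to 19.9-fold. All 3 probe sets of the gene moved alike, with changes of 3.61, 3.53 and 3.38, although the 2 whose names end in _s_at may also read closely related Cyp2b transcripts. Cyp2b10 was the only gene called whichever of the 6 arrays was left out, with changes between 3.46 and 3.77.

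Cyp2c29, a P450 that oxidises fatty acids and steroids, varied little within each pair. It stood at 12.26 and 12.30 in CITCO mice, at 11.24 and 11.22 in TCPOBOP mice and at 10.74 and 10.67 in corn oil mice. The change was 1.31 (SE 0.16, adjusted p = 0.00122 in limma; 1.96-fold to 3.14-fold). Here the TCPOBOP pair lay above the corn oil pair, opposite to the order seen for Cyp2b10. Cyp2c55, which encodes a P450 that hydroxylates arachidonic acid, was at 8.50 and 8.70 in CITCO mice, against 5.80 and 5.75 in TCPOBOP mice and 6.08 and 5.91 in corn oil mice. The 4 control values lay between 5.75 and 6.08, and the change was 2.71 (SE 0.38, adjusted p = 0.00317).

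Cyp2c54 and Cyp2c50 are neighbouring genes of the same subfamily. Cyp2c54 averaged 10.94 ± 0.08 (SD, n = 2) in CITCO mice, the lower of them at 10.89, and was at 8.19 and 8.50 in TCPOBOP mice and at 8.53 and 9.77 in corn oil mice (change 2.20, SE 0.27, adjusted p = 0.00122 in limma). Cyp2c50 was at 10.90 and 11.03 in CITCO mice, at 7.92 and 8.56 in TCPOBOP mice and at 8.28 and 10.18 in corn oil mice (change 2.23, SE 0.37, adjusted p = 0.0210). In both genes corn oil replicate 2 was the highest control, and the gap between it and the lower CITCO mouse was 1.12 for Cyp2c54 and 0.72 for Cyp2c50. The transcripts of this subfamily are similar in sequence, so their probe sets may share signal.

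In RefSeq's annotation of GRCm38.p6, 15 protein-coding Cyp2c genes lie on chromosome 19, of which 10 were tested here and 4 were called. Counted along the chromosome, the called genes were the first (Cyp2c55), the fourth (Cyp2c29) and a neighbouring pair in positions 12 and 13 (Cyp2c54 and Cyp2c50). Beside that pair, in position 11, Cyp2c37 was at 6.27 and 8.26 in CITCO mice, at 4.20 and 4.17 in TCPOBOP mice and at 6.06 and 8.51 in corn oil mice. Its CITCO and corn oil values overlapped, and its change of 1.53 (SE 0.77) had an adjusted p of 0.506 in limma. The 5 other tested members had changes of 0.49 (Cyp2c39), 0.02 (Cyp2c70), -0.04 (Cyp2c68), -0.07 (Cyp2c38) and -0.07 (Cyp2c23), all with overlapping groups.

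The 250 bases before the start of Cyp2b10, Cyp2c29, Cyp2c55 and Cnmd, the 4 genes that mark the response, are printed to show the promoters of genes that moved together. They are RefSeq sequences on GRCm38.p6, 5′ to 3′ on the strand of the gene, at chr7:25897408-25897657 (+), chr19:39286835-39287084 (+), chr19:39006769-39007018 (+) and chr14:79662184-79662433 (-). Capitals mark AGGTCA and AGTTCA, hexamers that nuclear receptors such as CAR are known to bind, and TATAAA, the core of the TATA box, each searched on both strands.
Cyp2b10: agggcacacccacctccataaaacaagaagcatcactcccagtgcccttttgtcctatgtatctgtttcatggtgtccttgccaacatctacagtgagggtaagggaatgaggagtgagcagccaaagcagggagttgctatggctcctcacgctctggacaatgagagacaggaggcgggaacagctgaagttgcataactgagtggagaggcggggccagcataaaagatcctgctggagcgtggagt
Cyp2c29: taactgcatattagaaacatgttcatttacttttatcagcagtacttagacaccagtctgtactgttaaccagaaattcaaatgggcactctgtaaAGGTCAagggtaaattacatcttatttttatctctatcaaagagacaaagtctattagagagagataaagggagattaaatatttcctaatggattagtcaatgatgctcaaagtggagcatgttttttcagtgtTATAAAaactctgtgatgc
Cyp2c55: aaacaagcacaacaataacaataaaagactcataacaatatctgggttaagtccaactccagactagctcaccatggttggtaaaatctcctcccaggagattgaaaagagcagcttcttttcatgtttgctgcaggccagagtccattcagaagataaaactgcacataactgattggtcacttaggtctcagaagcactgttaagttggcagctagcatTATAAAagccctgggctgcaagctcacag
Cnmd: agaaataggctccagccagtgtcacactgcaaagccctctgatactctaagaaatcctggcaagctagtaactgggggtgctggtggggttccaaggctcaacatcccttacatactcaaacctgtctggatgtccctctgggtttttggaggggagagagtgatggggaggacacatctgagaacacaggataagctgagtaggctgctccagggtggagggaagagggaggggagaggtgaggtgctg

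Of the 12 genes, 9 were matched in the promoter table, with 11 windows of 250 bases. AGGTCA was found in 2 of the 11 windows, those of Cyp2c29 (-154 to -149 from the start) and Ces2a (-226 to -221), and in 14% of 32851 windows of all genes. AGTTCA was found in 3 windows (Rarb, Cyp2c50 and 4931406C07Rik) and in 11.8% of all windows. TATAAA was found in 3 windows, at -29 in Cyp2c55, at -19 in Cyp2c29 and at -205 in 4931406C07Rik, and in 12.4% of all. Pairs of AGGTCA or AGTTCA in direct repeat with a spacer of 4 bases, the arrangement known for CAR sites, were in 0 of the 11 windows and in 0.0244% of all. With a share that low, 0 of 11 windows cannot show whether these genes have CAR sites, and sequence outside the 250 bases was not searched. No 2 of the motif matches overlapped, and the Cyp2b10 and Cnmd windows held none.

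Outside the P450s, Abcc3 and Ces2a belong to the later steps of drug disposal. Abcc3, a transporter that exports glucuronides from the hepatocyte into blood, was at 10.15 and 10.00 in CITCO mice, against 9.10 and 9.22 in TCPOBOP mice and 9.12 and 9.05 in corn oil mice (change 0.95, SE 0.12, adjusted p = 0.00201 in limma). All 4 control values lay between 9.05 and 9.22. Ces2a, a carboxylesterase of the endoplasmic reticulum, was at 11.46 and 11.24 in CITCO mice, at 10.67 and 10.44 in TCPOBOP mice and at 10.25 and 10.04 in corn oil mice (change 1.00, SE 0.17, adjusted p = 0.0230). Against the TCPOBOP mice alone its change was 0.79 and it was no longer called.

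Cnmd was at 8.29 and 7.22 in CITCO mice, at 5.04 and 4.76 in TCPOBOP mice and at 4.87 and 5.82 in corn oil mice. The CITCO pair differed by more than 1 unit, and 3 of the 4 control values were under the limit below which a gene is counted as dim. The change was 2.64 (SE 0.36, adjusted p = 0.00284 in limma; 3.66-fold to 10.6-fold). Rarb, the retinoic acid receptor beta gene, was at 5.34 and 5.09 in CITCO mice, at 4.03 and 4.32 in TCPOBOP mice and at 4.16 and 4.27 in corn oil mice (change 1.02, SE 0.16, adjusted p = 0.0147). All 4 of its control values were dim by that limit.

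The remaining 3 of the 12 genes lie outside the lists of drug disposal genes. Txnip, whose product binds thioredoxin and limits glucose uptake, was at 8.51 and 8.58 in CITCO mice, at 7.07 and 7.39 in TCPOBOP mice and at 7.60 and 7.58 in corn oil mice (change 1.13, SE 0.20, adjusted p = 0.0312 in limma), and its other probe set gave 1.14. 4931406C07Rik was at 10.14 and 9.85 in CITCO mice, at 9.50 and 9.35 in TCPOBOP mice and at 8.84 and 9.09 in corn oil mice (change 0.80, SE 0.15, adjusted p = 0.0430), and its other probe set gave 1.05. Both lost the call whichever of the 6 arrays was left out. Mmut, the mitochondrial methylmalonyl-CoA mutase gene, was at 9.32 and 9.20 in CITCO mice, at 8.63 and 8.68 in TCPOBOP mice and at 8.95 and 8.80 in corn oil mice (change 0.50, SE 0.09, adjusted p = 0.0261). A second Mmut probe set gave -0.05, with overlapping groups, so the rise was seen in 1 of the 2 probe sets that were not dim.

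The controls were next set against each other, since the comparison pools them. TCPOBOP and corn oil mice of the human CAR genotype differed in 0 genes in limma (0%), with 610 genes (6.66%) at an unadjusted p under 0.05. For Cyp2b10 the difference, TCPOBOP minus corn oil, was -1.21 (95% interval -2.02 to -0.40, adjusted p = 0.632). For Cyp2c29 it was 0.53 (adjusted p = 0.656), and for Cyp2c54 and Cyp2c50 it was -0.80 and -0.99. These p-values do not show that the 2 control groups were alike. Corn oil replicate 2 matters here: without it 11 genes differed between TCPOBOP and corn oil mice.

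In knockout mice, which have neither receptor, the same contrast called 1 gene (0.0109%), with 716 genes (7.81%) at an unadjusted p under 0.05. That gene was Parp16, which encodes an ADP-ribosyltransferase of the endoplasmic reticulum (5.97 and 5.43 in knockout CITCO mice, against 4.75 and 4.46 in knockout TCPOBOP mice and 4.27 and 4.39 in knockout corn oil mice; change 1.23, adjusted p = 0.00186 in limma); the call was lost without knockout CITCO replicate 1. All 4 knockout control values of Parp16 were dim, and it passed the filter through the knockout CITCO pair, where it is high, so the change is measured against background. In human CAR mice Parp16 was dim at 4.68 and 4.63 under CITCO and lay between 4.29 and 5.03 in the controls, with 1 value above the limit. None of the 12 genes was called in knockout mice. Cyp2b10 was at 4.45 and 4.82 in knockout CITCO mice, at 4.75 and 4.90 in knockout TCPOBOP mice and at 5.42 and 4.81 in knockout corn oil mice, a change of -0.34 among values of which only 1, the 5.42, was above the limit for dim genes. The knockout change was -0.24 for Cyp2c29, -0.16 for Cyp2c54, -0.04 for Cyp2c55 and 0.00 for Cnmd. It was largest for Txnip, at 0.57, where 1 knockout CITCO mouse reached 8.99 and the other 7.92. Knockout Cyp2c29 was at 8.64 and 9.41 under TCPOBOP and at 8.13 and 7.83 under corn oil. Both knockout CITCO values, 8.35 and 8.16, lay above the corn oil pair, so its negative change came from the TCPOBOP mice. Cyp2c55 and Abcc3 showed the same order of groups, while Cyp2c54 and Cnmd did not. Knockout TCPOBOP was not tested against knockout corn oil.

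The difference of the CITCO changes between human CAR and knockout mice was tested as an interaction, and 4 of 9164 genes passed (0.0436%). They were Cyp2b10 (3.95, SE 0.47, adjusted p = 0.00229 in limma), Cyp2c29 (1.56, SE 0.23, adjusted p = 0.0160), Cyp2c54 (2.36, SE 0.38, adjusted p = 0.0377) and Parp16 (-1.21, adjusted p = 0.0432), the last set against dim values. The knockout part of the Cyp2c29 difference includes the higher knockout TCPOBOP values given above. For 9 of the 12 genes the difference between genotypes did not pass. It was 2.76 for Cyp2c55 and 2.63 for Cnmd (adjusted p = 0.108 each), 1.92 for Cyp2c50 (adjusted p = 0.543) and 0.56 for Txnip (adjusted p = 0.905). Leaving out human CAR CITCO replicate 1, knockout corn oil replicate 1 or human CAR TCPOBOP replicate 2 left 1 gene, leaving out knockout CITCO replicate 2 or knockout TCPOBOP replicate 2 left 2, and leaving out human CAR corn oil replicate 2 gave 15.

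**Figure D2:**
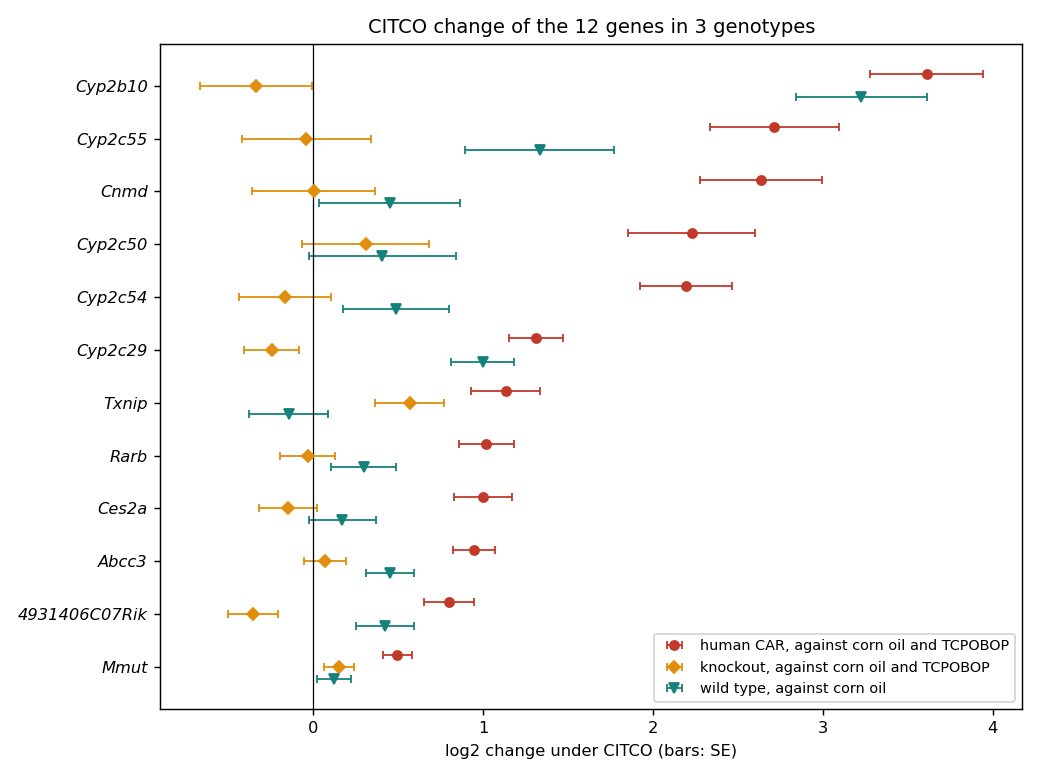
The x axis gives the log2 change under CITCO with its SE for each of the 12 genes (rows): red circles for human CAR mice and orange diamonds for knockout mice, both against TCPOBOP and corn oil, and green triangles for wild-type mice against corn oil. Cyp2b10 changed by 3.61 in human CAR mice, by -0.34 in knockout mice and by 3.23 in wild-type mice, and Cnmd by 2.64, 0.00 and 0.45 in the same order.

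Wild-type mice were compared against corn oil only, because TCPOBOP activates mouse CAR. In them CITCO raised Cyp2b10 too, to 7.36 and 8.98, against 4.66 and 5.22 in wild-type corn oil mice (change 3.23, adjusted p = 0.00226 in limma). The change against corn oil was 3.01 in human CAR mice, and the difference between the genotypes, human CAR minus wild type, was -0.22 with a 95% interval of -1.37 to 0.93. Since the wild-type corn oil value of 4.66 was dim and that of 5.22 close to the limit, the wild-type change is read against background and the difference is no exact measure. Corn oil mice had 8.22 and 8.82 with human CAR. None of the other 11 genes was called under CITCO in wild-type mice, and the share of all genes called there was not counted. The changes were 1.33 for Cyp2c55, 1.00 for Cyp2c29, 0.49 for Cyp2c54, 0.45 for Cnmd and 0.17 for Ces2a. Wild-type Cyp2c55 was at 6.66 and 8.90 under CITCO, against 6.36 and 6.54 under corn oil, so its change came mostly from 1 mouse. Cyp2c29 was at 12.11 and 11.87 against 10.97 and 11.02. For Cyp2c54 (10.67 and 11.35 against 10.68 and 10.36) and Cnmd (5.15 and 5.90 against 5.26 and 4.89) the pairs overlapped.

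The difference of the CITCO changes between human CAR and wild-type mice passed for 0 genes in limma (0%), with 862 (9.41%) at an unadjusted p under 0.05. Among the 12, the difference was 1.96 for Cnmd (95% interval 0.72 to 3.21), 1.31 for Cyp2c54 (0.37 to 2.24) and 1.27 for Cyp2c55 (-0.04 to 2.58). Their adjusted p-values were 0.338, 0.399 and 0.554.

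Levels in corn oil mice differed between the genotypes for Cyp2b10, Cyp2c29 and Cyp2c55, as a description with no test. In corn oil mice Cyp2b10 was at 8.22 and 8.82 with human CAR, against 5.42 and 4.81 in knockout mice and 4.66 and 5.22 in wild-type mice. Cyp2c29 was at 10.74 and 10.67 with human CAR, close to 10.97 and 11.02 in wild-type mice, and at 8.13 and 7.83 in knockout mice. Thus the human CAR corn oil pair lay above both other genotypes for Cyp2b10, and above the knockout pair but below the wild-type pair for Cyp2c29. Cyp2c55 was at 6.08 and 5.91 with human CAR, at 6.36 and 6.54 in wild-type mice and at 5.10 and 5.21 in knockout mice. Its pairs thus stood in the order seen for Cyp2c29. Cnmd ran from 4.87 to 5.82, with all 3 genotypes overlapping.

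**Figure D3:**
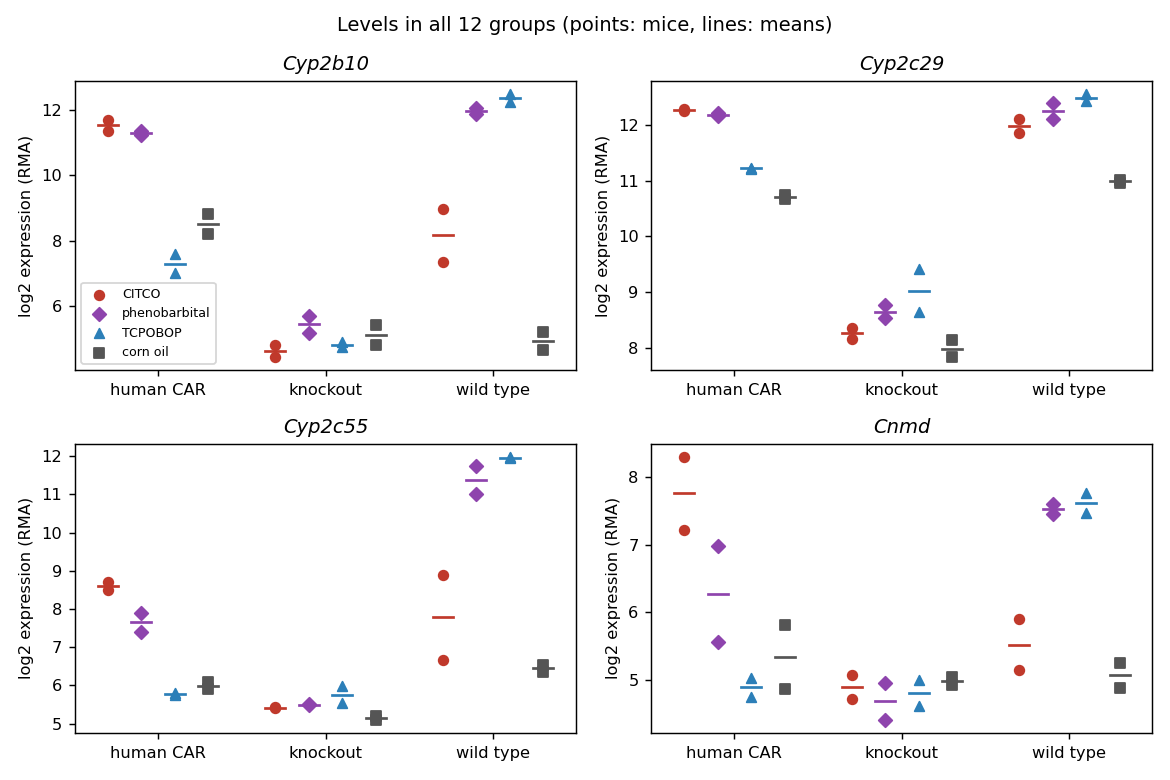
Each panel shows 1 gene, with the RMA level on the log2 y axis, points for mice and lines for group means, and within each genotype CITCO, phenobarbital, TCPOBOP and corn oil from left to right. Cyp2b10 in human CAR mice was at 11.37 and 11.68 under CITCO and at 8.22 and 8.82 under corn oil, while no knockout mouse exceeded 5.71.

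Human CAR mice given phenobarbital had Cyp2b10 at 11.22 and 11.37, Cyp2c29 at 12.16 and 12.22 and Cyp2c55 at 7.41 and 7.90. These arrays share the 4 controls with the CITCO arrays, so the values of each are given side by side without a test of likeness. Against those controls the changes under phenobarbital were 3.38 for Cyp2b10, 2.23 for Cyp2c50, 2.11 for Cyp2c54, 1.77 for Cyp2c55, 1.22 for Cyp2c29 and 0.68 for Abcc3, all with an adjusted p under 0.05 in limma. Under CITCO the same genes changed by 3.61, 2.23, 2.20, 2.71, 1.31 and 0.95. The share of all genes called under phenobarbital was not counted. In human CAR mice given phenobarbital, Cnmd was at 5.57 and 6.98, Ces2a at 10.88 and 10.97 and 4931406C07Rik at 9.37 and 9.71. Rarb, Mmut and Txnip had phenobarbital changes of -0.01, 0.07 and -0.10, against 1.02, 0.50 and 1.13 under CITCO; 1 of the 2 phenobarbital arrays is an array that stood apart.

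TCPOBOP, a ligand of mouse CAR, was set against corn oil in wild-type mice. These arrays are other than those of the main comparison, although 1 fit gives both their estimate of each gene's spread. Under TCPOBOP 306 genes (3.34%) were called higher and 257 (2.8%) lower. How far these changes depend on CAR was not tested. Of the 12 genes called under CITCO in human CAR mice, 9 (75%) were among the 306, and these 9 were 2.94% of the 306. The 3 others were Cyp2c50 (1.42 in wild-type mice, adjusted p = 0.0636 in limma), Mmut (-0.26) and Txnip (-0.52). Cyp2b10 changed by 3.61 under CITCO in human CAR mice and by 7.42 under TCPOBOP in wild-type mice, Cyp2c55 by 2.71 and 5.51, and Ces2a by 1.00 and 2.70. Cnmd changed by 2.64 and 2.53, and Cyp2c54 by 2.20 and 1.80, in the same order. The human CAR changes are against corn oil and TCPOBOP mice, the wild-type changes against corn oil alone. Starting levels of Cyp2b10 differed. Corn oil mice had 4.66 (dim) and 5.22 in wild type, and 8.22 and 8.82 with human CAR. Cyp2b10 reached 12.24 and 12.48 in wild-type TCPOBOP mice and 11.37 and 11.68 in human CAR CITCO mice.

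Of the 306 genes, 175 (57.2%) had a positive change under CITCO in human CAR mice and 131 a negative one, beside 47.9% positive over all genes. The median change of the 306 was 0.04, against -0.01 over all genes. At an unadjusted p below 0.05, 56 of the 306 (18.3%) were higher and 24 (7.84%) lower. Of the 20 with the largest rises in wild-type mice, 13 were higher at that threshold and 0 lower, 12 (60%) had both CITCO arrays above all controls, and 6 were called; over all genes the shares were 4.76% higher, 5.73% lower, 7.59% above all controls and 0.131% called. Cyp26a1, which degrades retinoic acid, was at 8.26 and 8.91 in CITCO mice, at 6.20 and 7.11 in TCPOBOP mice and at 7.12 and 6.47 in corn oil mice, but its change of 1.86 had an adjusted p of 0.136 in limma. Gstm3 (1.10, adjusted p = 0.211) and Prom1 (1.03, adjusted p = 0.136) were likewise not called. Prom1 was dim on 5 of the 6 arrays. Fhit, which encodes a dinucleotide hydrolase, was above the limit for dim genes on all 6 arrays and had a change of 0.05 under CITCO, beside 2.52 under TCPOBOP in wild-type mice. Of the 306 genes, 25 were dim on all 6 human CAR arrays, among them Sult1e1, Mical1 and Meig1 of the 20, and their differences there say nothing about a response.

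**Figure D4:**
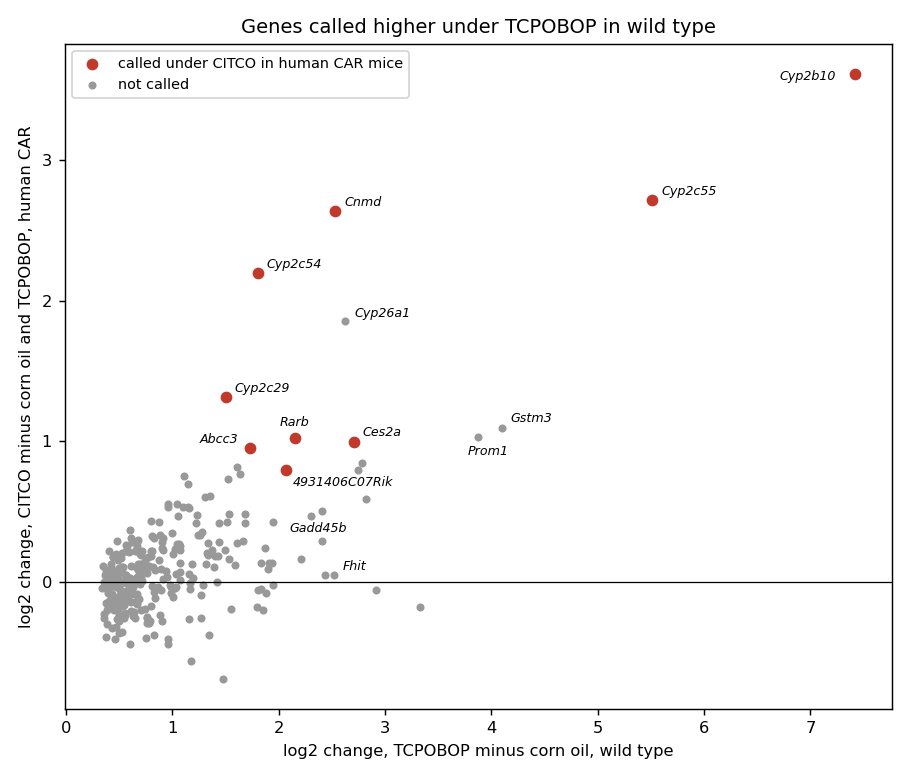
Each point is 1 of the 306 genes called higher under TCPOBOP in wild-type mice, with that log2 change on the x axis and the change under CITCO in human CAR mice on the y axis. Red points are the 9 genes called in both, with Cyp2b10 at 7.42 and 3.61; 25 of the grey points are genes that were dim on all 6 human CAR arrays.

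The drug disposal genes were then read list by list. Over all genes 0.131% were called, 4.76% were higher and 5.73% lower at an unadjusted p below 0.05, and the median change was -0.01. Of 27 tested P450 genes and their partners, 5 were called, 7 were higher and 3 lower at an unadjusted p below 0.05, and the median change was 0.13. Cyp3a11, the main target of the related receptor PXR, was at 12.18 and 12.27 in CITCO mice and at 11.95 to 12.20 in the controls (change 0.16, adjusted p = 0.725 in limma). Cyp1a2, which metabolises caffeine, had a change of 0.53 (adjusted p = 0.338), with CITCO values of 11.61 and 11.26 against 10.37 to 11.35.

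None of 23 genes for glutathione transferases and glutathione synthesis was called, but 8 (34.8%) were higher and 0 lower at an unadjusted p below 0.05, beside 4.76% and 5.73% of all genes, with a median of 0.28. Gstm3, which conjugates glutathione to electrophiles, was at 10.51 and 10.28 in CITCO mice, at 9.90 and 9.24 in TCPOBOP mice and at 9.48 and 8.59 in corn oil mice. Gstt3 had a change of 0.85 (adjusted p = 0.189 in limma), Gstm6 one of 0.71 and Gstm1 one of 0.48. For Gstm3, Gstt3, Gstm6 and Gstm1, named for their small p in this comparison, both CITCO mice exceeded every control. Of the 23 genes, 7 (30.4%) were separated in this way and 1 (4.35%) in the other direction, against 7.59% and 7.7% of all genes. Among the same genes in knockout mice the median change was -0.09.

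Over all genes, as above, 0.131% were called, and 4.76% were higher and 5.73% lower at an unadjusted p below 0.05. Of 17 glucuronosyltransferases, sulfotransferases and cosubstrate enzymes 0 were called, 3 (17.6%) were higher and 0 lower at that threshold, and the median was 0.16. Ugt2b1 had a change of 0.69 (adjusted p = 0.274) and Sult1d1 one of 0.76 (adjusted p = 0.411) in limma. Among 30 esterases, oxidases and reductases only Ces2a was called, with 4 (13.3%) higher and 1 (3.33%) lower at that threshold and a median of 0.14. Ces1d, another carboxylesterase, had a change of 0.70 (adjusted p = 0.276). Among 17 transporters only Abcc3 was called, 1 (5.88%) was higher and 0 lower at that threshold, and the median was 0.09. Abcc2, which exports conjugates into bile, had a change of 0.48 (adjusted p = 0.599).

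Of 14 genes outside drug metabolism that respond to CAR, 2 were called (Cnmd and Rarb), beside 0.131% of all genes, and the median was 0.30. Before adjustment, 5 of the 14 (35.7%) rose and 0 fell at p below 0.05, against 4.76% and 5.73% of all genes. This list was drawn up with earlier results of these arrays known and is no independent evidence of its direction. Gadd45b, a stress-induced gene that interacts with CAR in mouse liver, was at 6.08 and 6.17 in CITCO mice and at 5.57 to 5.76 in the controls, a change of 0.47 that was not called (adjusted p = 0.516 in limma).

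**Figure D5:**
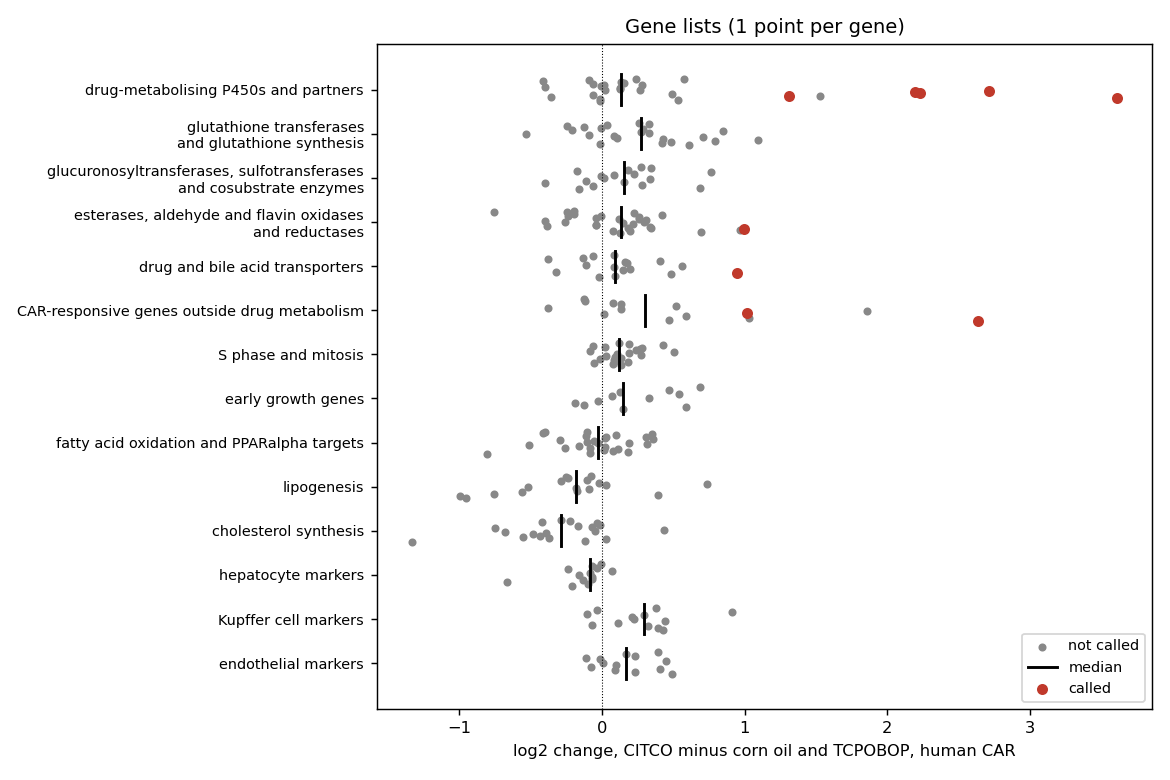
Each row is a gene list and each point a tested gene, with the log2 change under CITCO against TCPOBOP and corn oil in human CAR mice on the x axis; black bars are list medians and red points called genes. Called genes appear in the lists of P450s (5 of 27), esterases (1 of 30), transporters (1 of 17) and other CAR-responsive genes (2 of 14). Over all genes 0.131% were called. Txnip, Mmut and 4931406C07Rik were called but lie in none of the rows.

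Genes of growth and energy metabolism were called in none of the lists examined, and over all genes the shares with an unadjusted p below 0.05 were 4.76% upward and 5.73% downward. Of 23 genes of S phase and mitosis, 4 (17.4%) were higher and 0 lower at that threshold, with a median of 0.12; in wild-type mice given TCPOBOP the median of the same genes was 1.04. Mcm6, a subunit of the replicative helicase, was at 5.83 and 5.21 in CITCO mice, against 4.84 and 5.00 in TCPOBOP mice and 5.21 and 5.01 in corn oil mice (adjusted p = 0.397 in limma). Among 17 genes of lipogenesis 1 (5.88%) was higher and 3 (17.6%) lower, with a median of -0.18. Fasn, fatty acid synthase, was at 7.32 and 6.89 in CITCO mice, at 9.09 and 7.94 in TCPOBOP mice and at 7.88 and 7.49 in corn oil mice, a change of -0.997 (adjusted p = 0.288). Both CITCO values lay below all controls, and the change was -0.58 against corn oil alone and -1.41 against TCPOBOP alone.

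Of 19 genes of cholesterol synthesis 17 had a negative change, with a median of -0.29 and 1 gene higher and 1 lower at an unadjusted p below 0.05. The median was -0.14 against corn oil alone and -0.46 against TCPOBOP alone. It was -0.38 in knockout mice against both controls and -0.63 in wild-type mice against corn oil. Hmgcs1, an early enzyme of the pathway, had changes of -1.33 in human CAR mice, -1.08 in knockout mice and -1.17 in wild-type mice, and in human CAR mice its adjusted p was 0.512 in limma. Among 27 genes of fatty acid oxidation the median was -0.02, with 1 (3.7%) higher and 4 (14.8%) lower at an unadjusted p below 0.05, against 4.76% and 5.73% of all genes. Cyp7a1, whose enzyme limits the rate at which bile acids are made, and Pck1, a key enzyme of gluconeogenesis, had changes of -0.17 and -0.11 that turned positive against the TCPOBOP mice alone (0.23 and 0.02).

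Markers of other liver cells were followed because bulk RNA was measured, in which fewer cells of a type and less RNA per cell cannot be told apart. Of 13 tested Kupffer cell markers 3 (23.1%, against 4.76% of all genes) were higher and 0 lower at an unadjusted p below 0.05, and for 6 (46.2%, against 7.59% of all genes) both CITCO arrays lay above all controls; their mean level was 7.57 and 7.72 in CITCO mice and 7.18 to 7.45 in control mice. Cd163, a scavenger receptor of macrophages, was at 6.15 and 6.17 in CITCO mice, at 5.48 and 5.27 in TCPOBOP mice and at 4.82 and 5.40 in corn oil mice (change 0.91, adjusted p = 0.0715 in limma). The 13 endothelial markers had a mean level of 6.55 and 6.76 in CITCO mice and 6.42 to 6.53 in control mice, with 4 separated upward. Among markers of other cells, both CITCO arrays lay below all controls for 4 of 8 lymphocyte markers (50%) and 2 of 10 neutrophil markers (20%), against 7.7% of all genes, and 9 of the 10 neutrophil and 10 of 12 stellate cell markers had a negative change. Of the separated lymphocyte markers, Cd79a was dim on all 6 arrays and Cd3d on all but TCPOBOP replicate 1. Their differences are measured against background, while Cd4 was above the limit for dim genes on all 6. Of 13 hepatocyte markers 12 had a negative change, with a median of -0.08. The part of these shifts in the calls above was not tested; none of the 12 genes belongs to these marker lists.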

How the data were processed

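Livers of 24 mice in 12 groups of 2 were measured with 1 Affymetrix array each. The deposited values are log2 expression levels per probe set, which the authors computed by RMA under R 2.15.0 per the submitters' processing notes. No value was missing (range 2.03 to 14.1), the medians of the arrays lay between 5.41 and 5.51, and the values were used as they stood. An array value has no read depth; the precision is limited by 2 arrays per group. The sources used here give no genome build, hybridisation date or litter.

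From these values 64 control probe sets were left out. Of the others, 20380 had 1 gene symbol in the platform annotation, 691 several and 1555 were unlisted; 20351 were matched to the RefSeq gene table. Each of 12393 genes was represented by its brightest probe set, and 9164 were tested, those above the array's 40th percentile on at least 2 arrays; a value under that percentile is called dim. Group means were fitted with limma 3.58.1 in R 4.3.3 over all 24 arrays, which share 1 spread (12 residual degrees of freedom), and contrasts were tested with eBayes and Benjamini-Hochberg adjustment at 0.05. The fit was tested on simulated data. Folds are 2 to the power of the log2 difference. No 2 arrays held identical values.

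Named genes were 10 picked by name, all called genes, up to 4 members of each list by smallest p, and the genes next to the threshold. Cyp2c and glutathione transferase members were named as families, and the 20 largest wild-type rises by rank. The members and lists were chosen with earlier results of these data known. Same-numbered mice did not deviate together (correlations of deviations -0.45 to 0.42, median 0.03, over 66 pairs of groups), so no pairing was used. Alternatives changed the arrays in the fit, the normalisation, the filter, the probe set rule, the variance model, array weights, the controls and each array in turn.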

Additional observations from a re-analysis of the deposited data

Results flagged for a closer look

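For 4 genes the CITCO change differed between human CAR and knockout mice in limma's test of the difference itself. The difference, human CAR minus knockout, was 3.95 for Cyp2b10, with changes of 3.61 in human CAR mice and -0.34 in knockout mice. It was 1.56 for Cyp2c29, with 1.31 in human CAR mice and -0.24 in knockout mice, where the TCPOBOP pair lay above the CITCO and corn oil pairs. It was 2.36 for Cyp2c54, with 2.20 in human CAR mice and -0.16 in knockout mice. For Parp16 it was -1.21, with 0.02 in human CAR mice and 1.23 in knockout mice, and outside the knockout CITCO pair all arrays lay between 3.99 and 5.03, only the highest of them above the limit for dim genes, so this difference is measured against background.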

How the results depend on the processing

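The 12 genes called under CITCO in human CAR mice became 3 with only the compared genotype in the fit, 3 with array weights, 19 with the replicate block and 22 without the 2 phenobarbital arrays that stood apart; leaving out 1 array gave 1 to 11. The 19 (17 higher, 2 lower) and the 22 (20 higher, 2 lower) each included all 12. The count was 8 with corn oil as the only control and 16 with TCPOBOP as the only control. Cyp2b10 was called in 17 of 17 settings, Cyp2c29, Cyp2c54 and Cnmd in 15, and Mmut, Txnip and 4931406C07Rik in 8. TCPOBOP against corn oil (0 genes) gave 0 to 11 on leaving out 1 array. The 1 gene of the knockout comparison became 3 with only that genotype, 2 with cyclic loess, 0 with the stricter filter (609 at an unadjusted p under 0.05), 49 with array weights and 6 without the phenobarbital arrays, and leaving out 1 array gave 1 to 2. The 4 genes differing between human CAR and knockout mice became 2 with only those genotypes, 0 with array weights, where 395 had an unadjusted p under 0.05, and 11 without the phenobarbital arrays, and leaving out 1 array gave 1 to 15. Human CAR against wild type (0 genes) gave 0 to 1. With the replicate block these 4 counts were 0, 1, 5 and 0. Among genes not called, leaving out 1 array gave -0.12 to 0.31 for Nr1i3 and -0.95 to 0.62 for Cyp7a1, reversed without human CAR CITCO replicate 2, and against TCPOBOP alone Cyp7a1 was 0.23 and Pck1 0.017. The causes were not tested. Where an arm was left with 1 array, that array was assumed to vary like the other groups. The arrays give no depth; 3 of 4 control values of Cnmd and all 4 of Rarb were dim.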
